A study of Mus musculus with 4 samples.

Results

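Integrin and laminin genes were examined in the chromatin of old and young mouse bone mesenchymal stem cells (MSCs). The set held the protein-coding genes with the symbols Itga or Itgb followed by digits or a letter, and Lama, Lamb or Lamc followed by a digit. An autosomal peak belonged to the set where it overlapped such a gene or lay within 5 kb upstream of its start (GENCODE vM21, GRCm38, the assembly that mm10 names). The rule took 332 of 117282 peaks. Of 38 annotated genes, 36 had at least 1 peak, while the leukocyte integrin genes Itgax and Itgb2l had none. No peak lay near 2 genes of the set, 30 peaks also overlapped another protein-coding gene, and 13 touched a neighbouring peak of the set.

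The assay was ATAC-seq, in which a transposase cuts and tags open DNA, on 2 samples of old MSCs (mice aged 18 to 22 months) and 2 samples of young MSCs (3 to 5 months). All 4 samples were kept at 2% O2, so the groups differ in age and not in oxygen level. No group at another oxygen level entered the comparison. With 2 samples per age, differences in isolation or handling between the groups cannot be told apart from age. The cells came from hind limb bones of C57BL/6N mice and were sorted on Sca-1 and CD140a after exclusion of CD45+ and Ter-119+ cells. The labels do not say whether replicates came from separate mice, so every p-value below measures only the spread between these samples.

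Integrins are cell surface receptors built from an alpha and a beta chain. They bind proteins of the extracellular matrix or of other cells and connect them to the actin cytoskeleton. Laminins are trimers of an alpha, a beta and a gamma chain and form the backbone of basement membranes, where several integrins bind them. In bone marrow, integrins hold stromal and blood-forming cells in place, and laminins containing the alpha 4 chain lie around its vessels.

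The library totals recovered from the values were between 28259470 and 32559794 counts. Values are given as counts per 10000000 library counts divided by a scaling factor per sample (relative log expression, RLE, between 0.813 and 1.15), and 3 counts were worth about 1 before that division. A value was not divided by peak length, so levels of different genes were compared per kb of peak. All 11 MSC marker genes had a peak within 1 kb of a start, among them Ly6a (Sca-1) and Pdgfra (CD140a). For blood markers this held for 5 of 8, and Ptprc (CD45) was among those without such a peak. Endothelial genes had such a peak in 3 of 5 cases (not Cdh5 and Tie1), erythroid genes in 3 of 4 (not Gata1) and epithelial genes in 3 of 5 (not Cdh1 and Grhl2). Where present, these peaks had a median density of 19.2 per kb for MSC genes. The medians were 17.4 for blood, 18.1 for endothelial, 21.1 for erythroid and 8.91 for epithelial genes. The MSC genes Eng and Lepr lay below the median density of all peaks (13.3 per kb). On chromosome 11, which holds Itgae, Itga3, Itga2b, Itgb3 and Itgb4, the median of old replicate 2 stood 0.17 (log2) above its autosomal median, against 0.02 in old replicate 1.

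The central 300 bases of 5 peaks whose values are described below are printed here, as the plus strand of GRCm38 5′ to 3′. Capitals mark matches, on either strand, to AP-1 (TGANTCA), RUNX (TGTGGT), TEAD (GGAATG), GC box (GGGCGG) or ETS (CCGGAAG) motifs. The first is an intron of Itga6, and the second an intron of Itga1. They have the largest log2 fold change towards old and young MSCs among peaks with separate groups and a mean value of at least 7.94, the lower quartile of all peaks. Weaker peaks with larger fold changes exist in both directions. The next ones lie in peaks of Lama2 and Itgb1, both among the 3 peaks with the highest value per kb. The last one, from a peak over coding sequence of Lama4, was added after its values were seen. Each label gives the place of the whole peak, so the printed Lama4 bases need not be coding.
Itga6 intron, chr2:71801801-71802100: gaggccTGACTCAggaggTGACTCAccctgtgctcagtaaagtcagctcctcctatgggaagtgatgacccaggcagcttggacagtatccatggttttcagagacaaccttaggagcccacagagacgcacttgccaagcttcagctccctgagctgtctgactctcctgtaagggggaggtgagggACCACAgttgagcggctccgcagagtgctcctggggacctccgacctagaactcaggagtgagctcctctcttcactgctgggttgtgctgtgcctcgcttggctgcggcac
Itga1 intron, chr13:115037201-115037500: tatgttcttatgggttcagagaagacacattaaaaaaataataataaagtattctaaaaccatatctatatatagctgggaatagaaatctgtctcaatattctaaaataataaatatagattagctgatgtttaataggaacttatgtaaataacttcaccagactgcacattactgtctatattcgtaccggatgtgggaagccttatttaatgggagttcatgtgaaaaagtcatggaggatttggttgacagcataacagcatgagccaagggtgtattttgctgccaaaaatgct
Lama2 intron, chr10:27063701-27064000: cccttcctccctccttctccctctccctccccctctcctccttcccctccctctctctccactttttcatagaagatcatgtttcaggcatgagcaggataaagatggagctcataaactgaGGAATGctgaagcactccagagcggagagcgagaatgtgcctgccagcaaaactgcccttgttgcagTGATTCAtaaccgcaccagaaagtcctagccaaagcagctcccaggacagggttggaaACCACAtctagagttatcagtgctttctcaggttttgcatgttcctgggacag
Itgb1 upstream, chr8:128680151-128680450: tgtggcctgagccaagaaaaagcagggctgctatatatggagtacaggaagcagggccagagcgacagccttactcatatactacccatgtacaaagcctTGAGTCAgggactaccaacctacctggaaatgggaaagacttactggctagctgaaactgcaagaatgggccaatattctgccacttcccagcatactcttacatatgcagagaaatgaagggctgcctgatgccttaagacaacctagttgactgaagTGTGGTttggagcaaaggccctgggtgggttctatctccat
Lama4 coding exon, chr10:39045151-39045450: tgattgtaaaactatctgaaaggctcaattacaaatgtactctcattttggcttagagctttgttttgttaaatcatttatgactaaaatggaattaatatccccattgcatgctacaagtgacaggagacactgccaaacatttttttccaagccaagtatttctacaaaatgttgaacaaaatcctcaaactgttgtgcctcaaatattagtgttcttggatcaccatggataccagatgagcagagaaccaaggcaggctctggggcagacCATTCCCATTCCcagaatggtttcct
The Itga6 window held 2 AP-1 matches and 1 RUNX match, the Lama2 window 1 match each to TEAD, AP-1 and RUNX, the Itgb1 window 1 AP-1 and 1 RUNX match, and the Lama4 window 2 TEAD matches. The Itga1 window held none of these letters, which says nothing about the factors.

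No integrin or laminin peak passed the test of old against young MSCs at an adjusted p under 0.01 (limma, Benjamini-Hochberg over all peaks), in either direction. Of all peaks tested, 0.0563% passed, 0.0307% as lower and 0.0256% as higher in old MSCs. None of the 332 passed at 0.05 either, where 1.12% of all peaks did (0.771% lower, 0.351% higher). At an unadjusted p under 0.05 stood 55 of the 332 peaks, a share of 16.6% against 16.4% of all peaks. Of these, 29 were lower and 26 higher in old MSCs, where the background was 8.87% lower and 7.49% higher. limma-voom on the recovered counts also gave 0 calls at 0.01. Both old samples lay below both young samples at 80 peaks and above them at 76, which is 24.1% and 22.9%, where all peaks gave 24.2% and 23.2%. On the values as deposited, without RLE factors, the median of all peaks was -0.27 and the same counts were 138 and 20. Relative to that median, each role described below kept its side under this scaling and under equal total signal. Leaving out old replicate 1 gave 20 lower and 18 higher peaks of the set past 0.01, where 8.83% of all peaks passed, and leaving out old replicate 2 gave 2 and 0, where 1.43% did. After RLE scaling the set stood near the background in number and direction. Their median log2 fold change, old minus young, was 0.03, against 0.00 over all peaks. Exact permutation of 2 against 2 samples gives a two-sided p of 0.33 at the least, so differences below are described by sample values and by the limma fit. Counts of peaks with separate groups, by role and by gene, stand beside the shares of all peaks, 24.2% lower and 23.2% higher.

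**Figure D1:**
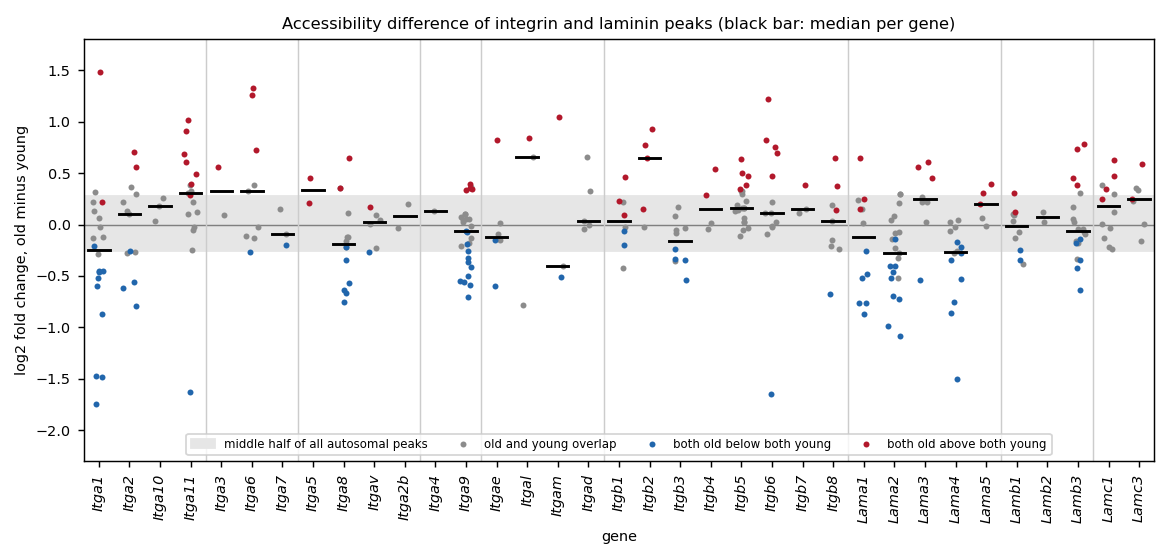
Log2 fold change (old minus young, limma fit, y axis) of 321 of the 332 peaks by gene (x axis, 35 genes ordered by role), coloured by whether the 2 old samples lay below, above or among the 2 young samples. Itgam (3 peaks), Lama4, Lama2 and Itga1 have medians below or near the lower quartile of all autosomal peaks, the edge of the grey band. The old replicates disagreed at Itgam, with a median of -0.85 for old replicate 1 alone and 0.17 for old replicate 2 alone. No point passed the adjusted threshold.

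The 332 peaks divided into 200 intronic, 74 exonic and 9 intergenic peaks and 49 peaks no more than 1 kb from where a protein-coding transcript begins, called promoter peaks. Promoters of the set had a lower density than other promoters, with a median of 17.4 per kb against 27.1 over 15717 autosomal promoter peaks. Both old samples lay above both young ones at 16 of the 49 promoter peaks (32.7%) and below at 6 (12.2%). Over all autosomal promoter peaks these shares were 16.0% and 25.2%. Promoters of the set had a median log2 fold change of 0.11, and all promoters one of -0.02. All 7 promoter peaks with an unadjusted p under 0.05 were higher in old MSCs, a share of 14.3%, and none passed after adjustment. Of all autosomal promoter peaks 9.61% had such a p, 820 lower and 690 higher. Some of the 49 lie at a start of another gene only. Among the 41 peaks within 1 kb of a start of their own gene, 14 were higher (34.1%) and 5 lower (12.2%) in both old samples. Of these 41 peaks, 5 had such a p, all higher in old MSCs. The intronic peaks leaned the other way, with 52 of 200 below (26.0%) and 42 above, where all intronic peaks gave 22.5% below and 25.5% above.

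Among the 34 genes with a peak at a start of their own, the strongest such peak ranged from 6.53 per kb at Itgb4 to 75.5 per kb at Itga2b. Itga2b encodes the alpha chain of the platelet fibrinogen receptor. Its peak, chr11:102464901-102469100, came within 1 kb of a start but covered none. It lay over coding sequence inside the gene, centred 3.1 kb from the gene start. The values were 256 and 375 in old MSCs and 311 and 325 in young MSCs. The old samples spanned the young ones, with a log2 fold change of -0.03 ± 0.16 (SE). The next densest were Itga1 (67.1 per kb), Itgb8 (58.1), Itgav (55.7), Itgb2 (43.8) and Itgb1 (36.3). Itgb2, the beta chain of leukocyte integrins, thus stood above Itgb1, the beta chain shared by most matrix receptors, per kb of its narrower peak. The groups overlapped at Itgb8, Itgav and Itgb1.

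Itgav, the alpha chain that pairs with several beta chains to bind RGD motifs in fibronectin and vitronectin, differed least. Its start peak had values of 219 and 206 in old and 213 and 209 in young MSCs (log2 fold change 0.01 ± 0.14, SE). Old and young samples did not overlap at 17 of the 34 start peaks, 12 of them higher and 5 lower in old MSCs. Over all autosomal promoter peaks, 16.0% were higher and 25.2% lower in both old samples. For the 41 peaks at a start of their own gene these shares were 34.1% and 12.2%. Lowest of all in density were Itgb4, Itgal (8.39 per kb), Itgad (9.46) and Itga10 (9.75). The peaks of Itga10 and Itgb7 also overlap another protein-coding gene.

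**Figure D2:**
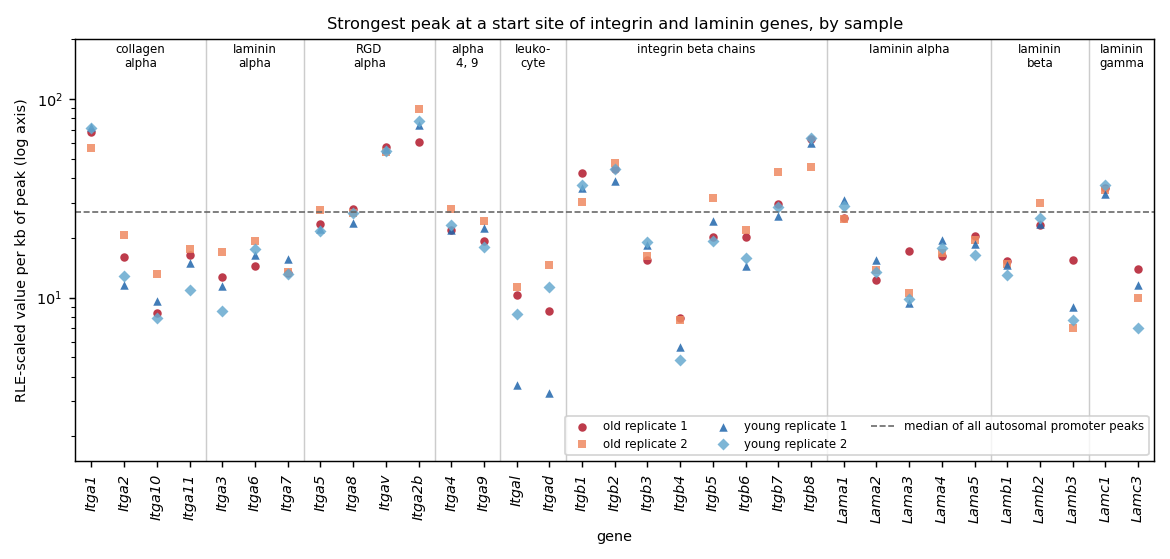
RLE-scaled value per kb of peak (y axis, log scale) in each of the 4 samples for the strongest peak at a start of 33 genes (x axis, by role), with the median of all autosomal promoter peaks as a dashed line. By the mean of the 4 samples, Itga2b, Itga1, Itgb8 and Itgav lie highest and Itgb4 lowest. In young replicate 1, Itgad and Itgal lie below Itgb4. The genes span a wider range than the 4 samples of any gene.

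The alpha chains that bind collagen (Itga1, Itga2, Itga10 and Itga11) had 53 peaks. Of these, 15 (28.3%) were lower and 11 (20.8%) higher in both old samples, against 24.2% and 23.2% of all peaks. The genes differed from each other. Itga1 encodes the alpha chain of a collagen receptor preferring basement membrane collagen. Both old samples lay below both young samples at 10 of its 20 peaks and above at 2, with a median log2 fold change of -0.24. The median was -0.12 with old replicate 1 alone against the young samples and -0.35 with old replicate 2 alone. Its summed values were 855 and 737 in old MSCs and 904 and 950 in young MSCs, so the groups did not overlap. Its intron peak chr13:115036801-115037900 had 17.2 and 8.54 in old and 20.9 and 25.5 in young MSCs (log2 fold change -0.87 ± 0.31, SE, adjusted p = 0.161). Old replicate 1 stood close to the young samples there. Many Itga1 peaks also lie within the overlapping gene model Gm49395. A weak pair of intron peaks, at chr13:115052101-115052400 and chr13:115055001-115055300, had 1 to 3 counts in each old sample and between 11 and 14 in each young sample. Another weak one, chr13:115023001-115023600, went the other way, with 5.16 and 6.40 in old and 1.66 and 1.19 in young MSCs (1.49 ± 0.43, adjusted p = 0.0878), the highest fold change of the set. These weak peaks were named after their values were seen.

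Itga11, a collagen receptor chain of fibroblasts and osteoblast precursors, leaned the opposite way, with 7 of 17 peaks higher and 1 lower. The peak over its coding exons at chr9:62730301-62733300 had 26.7 and 50.9 in old and 21.2 and 17.2 in young MSCs (log2 fold change 0.91 ± 0.28, adjusted p = 0.109). An intron peak at chr9:62689601-62690400 had 10.3 and 11.9 against 6.30 and 3.86 (1.02 ± 0.35, adjusted p = 0.144). Both old samples stood above the young ones at each, but over the whole gene this rested on old replicate 2. The median of Itga11 was 0.44 with old replicate 2 alone against the young samples and -0.002 with old replicate 1 alone. Within the same gene, the intron peak chr9:62716801-62717700, named after its values were seen, had 4.73 and 1.52 in old and 12.6 and 9.20 in young MSCs. Its log2 fold change was -1.63 ± 0.41 (adjusted p = 0.0586). With the replicate number as a block the adjusted p of this peak was 0.00687, and on the values as deposited 0.00532. It was the only peak of the set that passed the threshold under either of these fits.

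Itga2, whose product binds collagen on platelets and epithelial cells, combined both directions. Its start peak had 49.5 and 64.0 in old and 35.8 and 40.1 in young MSCs (0.56 ± 0.21, adjusted p = 0.199). An intron peak at chr13:114875801-114876900 had 19.8 and 18.0 in old and 31.5 and 35.6 in young MSCs (-0.80 ± 0.24, adjusted p = 0.101). The groups were separate at both sites, in opposite directions. Itga10, a chain of cartilage cells, had 3 peaks, and the groups overlapped at all of them.

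The alpha chains that bind laminin (Itga3, Itga6 and Itga7) had 14 peaks, 2 lower (14.3%) and 4 higher (28.6%) in both old samples. Itga6 pairs with the beta 1 or beta 4 chain as a laminin receptor of epithelial and stem cells. Its intron peak chr2:71801501-71802400, about 15.0 kb from the nearest start, had 13.3 and 18.3 in old and 5.64 and 6.23 in young MSCs. Both old samples stood well above the young ones, with a log2 fold change of 1.26 ± 0.31 and an adjusted p of 0.0558, the lowest of all 332 peaks. At the Itga6 start the values were 24.5 and 32.9 against 27.9 and 29.98, and the groups overlapped. The start peak of Itga3, on chromosome 11, had 39.6 and 52.5 in old and 35.5 and 26.4 in young MSCs (0.56 ± 0.23, adjusted p = 0.243). Itga7, the laminin receptor chain of muscle, had a start peak with 78.3 and 79.6 against 91.9 and 77.5, again overlapping.

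The RGD-binding alpha chains had 24 peaks, 7 lower (29.2%) and 5 higher (20.8%), against 24.2% and 23.2% of all peaks. Itga5, the fibronectin receptor chain, had only 2 peaks, both very wide. The one at its start (chr15:103352601-103372400, 19.8 kb) had 463 and 550 in old and 440.2 and 430 in young MSCs (0.21 ± 0.12, adjusted p = 0.401). The other (17.9 kb) reached its coding exons but was centred 26.6 kb from the start of this 22.5 kb gene, beyond its end. It also overlapped Zfp385a and counted as a promoter peak through a start of another gene. Its values were 282 and 313 against 222 and 211 (0.46 ± 0.14, adjusted p = 0.0978). Both peaks were higher in both old samples, but the second is not specific to Itga5. Itga8, which binds nephronectin, had 6 lower and 2 higher of 14 peaks. Its intron peak chr2:12211601-12213800, named after its values were seen, had 67.1 and 65.0 in old and 104 and 107 in young MSCs (-0.67 ± 0.18, adjusted p = 0.0671). The replicates of each age lay close together there. Without old replicate 2 this peak passed the threshold (adjusted p = 0.00419).

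Itga9, a receptor chain for tenascin and VCAM-1, had 28 peaks, 12 lower and 4 higher in both old samples, with a median log2 fold change of -0.07. Its summed values were 966 and 932 in old and 1098 and 1062 in young MSCs. Itga4, which shares ligands with it, had a single peak at its start, where the values of 30.6 and 39.3 overlapped with 30.9 and 32.4. The leukocyte alpha chains had 17 peaks, 3 lower (17.6%) and 3 higher (17.6%). A peak at a start within Itgal, the alpha chain of the lymphocyte receptor for ICAM-1, had 10.3 and 11.3 in old and 3.65 and 8.31 in young MSCs (0.84 ± 0.37, adjusted p = 0.259). Itgam and Itgae had no peak at a start.

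The beta chains leaned towards higher values in old MSCs: of 73 peaks, 23 were higher in both old samples and 8 lower, with a median log2 fold change of 0.13. Itgb6, whose product pairs with the alpha V chain in epithelia and activates latent TGF-beta, had 5 higher and 1 lower of 13 peaks. Its start peak had 92.9 and 101 in old and 66.0 and 73.0 in young MSCs (0.47 ± 0.18, adjusted p = 0.194). In its introns, chr2:60710801-60711700 had 10.8 and 23.5 against 5.31 and 7.42 (1.22 ± 0.36, adjusted p = 0.0918), and chr2:60702801-60703800 had 9.90 and 10.98 against 6.30 and 4.75 (0.82 ± 0.33, adjusted p = 0.23). The separate groups covered the start and sites within 20 kb of it, but also intron peaks further along the gene. One at 70.1 kb from the gene start was higher in both old samples (0.75 ± 0.33). Another at 112.7 kb, only 0.2 kb wide, was lower in both (-1.65 ± 0.48). The summed start peaks of the epithelial marker list stood at 78.3 and 76.5 in old and 52.7 and 52.2 in young MSCs, with Cdh1 and Grhl2 lacking a start peak. Krt8 (35.7 and 30.8 against 13.9 and 14.5) and Krt5 were higher in both old samples, while Epcam had 6.45 and 9.76 in old and 9.62 and 10.7 in young MSCs. Their part in the values of Itgb6 was not tested.

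Itgb5, a beta partner of the alpha V chain, had 21 peaks, of which 18 had a fold change above 0, 5 were higher in both old samples and none was lower in both. The old replicates disagreed here. With old replicate 2 alone against the young samples the median was 0.57, and with old replicate 1 alone it was -0.10, with 13 of the 21 peaks below 0. The summed values were 758 and 1134 in old and 833 and 775 in young MSCs, so the groups overlapped. Itgb2 had 4 of 5 peaks higher in both old samples, and both old replicates gave a positive median (0.84 and 0.38). Its start peak had 71.4 and 75.9 in old and 62.0 and 70.9 in young MSCs (0.15 ± 0.19, adjusted p = 0.744). The blood marker list summed to 451 and 643 in old and 592 and 526 in young MSCs at its start peaks, which overlap. Most of this sum is Cd68, on chromosome 11, with 326 and 478 against 458 and 399. Of the 5 blood genes with a start peak, Coro1a (18.1 and 21.3 against 15.9 and 14.8) and Lyz2 (18.1 and 15.6 against 15.3 and 13.7) were higher in both old samples. The groups overlapped at Cd68, Csf1r (77.5 and 119 against 88.6 and 89.3) and Spi1 (10.8 and 8.54 against 13.9 and 8.90). The part of blood cells in the values of Itgb2 was not tested.

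Itgb3, the beta chain of the vitronectin receptor of osteoclasts and platelets, was the only beta chain with a median fold change below 0 (-0.16). Of its 10 peaks, 4 were lower in both old samples and none higher. The median was -0.05 with old replicate 1 alone against the young samples and -0.26 with old replicate 2 alone. Its start peak had 99.4 and 103 in old and 118 and 122 in young MSCs (-0.24 ± 0.17, adjusted p = 0.498). The groups were separate although Itgb3 lies on chromosome 11, where old replicate 2 was raised. Itgb1 showed overlapping groups at its start, with 232 and 167 against 196 and 204. Upstream of it, chr8:128679601-128681000 was among the 3 densest peaks of the set (71.4 per kb) and had 103 and 83.6 in old and 105 and 108 in young MSCs. Itgb4, which anchors epithelial cells to laminin, had a weak start peak with 18.9 and 18.6 in old and 13.6 and 11.6 in young MSCs (0.54 ± 0.27, adjusted p = 0.329). Itgb8 had 3 higher and 1 lower of 9 peaks, and Itgb7 1 higher of 3.

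The laminin alpha chains leaned towards lower values in old MSCs, with 24 of 60 peaks lower in both old samples, 9 higher and a median of -0.14. Lama4 encodes the alpha chain of vascular and stromal laminins. At 8 of its 14 peaks both old samples lay below both young samples, at none above, and 12 of 14 fold changes were negative, with a median of -0.27. Its summed values were 555 and 549 in old and 665 and 721 in young MSCs, a log2 ratio of -0.33. Both old replicates gave this direction on their own, with medians of -0.20 and -0.26. At the peak over coding exons, chr10:39044601-39046000, the values were 24.1 and 22.0 in old and 40.1 and 45.1 in young MSCs (-0.86 ± 0.23, adjusted p = 0.0664). A strong intron peak at chr10:38992701-38997000, named after its values were seen, had 177 and 174 against 210 and 239 (-0.35 ± 0.14, adjusted p = 0.237). The start peak had 87.8 and 90.6 against 105 and 96.5 (-0.17 ± 0.17). At chr10:39066701-39067500 the values were 7.75 and 17.7 against 23.2 and 18.1 (-0.75 ± 0.33, adjusted p = 0.262), where old replicate 2 nearly reached the young samples. Without old replicate 2 this peak passed the threshold (adjusted p = 0.00496). The endothelial marker list summed to 69.3 and 68.9 in old and 80.3 and 75.4 in young MSCs at its start peaks. Tek was lower in both old samples (27.1 and 28.1 against 50.1 and 43.0), Kdr and Pecam1 were higher in both, and Cdh5 and Tie1 had no start peak. The part of endothelial cells in the values of Lama4 was not tested.

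Lama2, the laminin alpha chain of muscle and nerve basement membranes, showed 9 of 21 peaks lower in both old samples and none higher, with a median of -0.28. Its summed values were 582 and 497 in old and 601 and 657 in young MSCs. The densest peak of the whole set lay in its intron at chr10:27063101-27064600, with 75.6 per kb and values of 117 and 104 in old and 114 and 119 in young MSCs. The groups overlapped at this strongest site. They were separate at chr10:27010001-27011000, with 18.5 and 14.9 in old and 27.2 and 29.1 in young MSCs (-0.72 ± 0.25, adjusted p = 0.153). Its weak start peak had 18.5 and 20.7 against 23.2 and 20.2, which overlap.

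Lama1, the alpha chain of early embryonic laminin, had 6 lower and 3 higher of 12 peaks. Its start peak had 57.7 and 57.0 in old and 71.3 and 66.5 in young MSCs (-0.26 ± 0.19, adjusted p = 0.531), and an intron peak at chr17:67700901-67701700 had 6.45 and 4.88 against 10.9 and 9.50 (-0.76 ± 0.33, adjusted p = 0.267). Lama3 and Lama5, the alpha chains of epithelial laminins and of most adult basement membranes, lay on the other side. Lama5 had 3 of 5 peaks higher and none lower. Its start peak, 24.2 kb wide and the widest of the set, had 497 and 474 in old and 450 and 395 in young MSCs (0.20 ± 0.12, adjusted p = 0.415). Lama3 had 3 of 8 higher and 1 lower, with a median of 0.43 in old replicate 2 but 0.02 in old replicate 1.

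The beta and gamma chains complete the laminin trimer. The beta chains had 32 peaks, 7 lower (21.9%) and 6 higher (18.8%) in both old samples, and a median of -0.05. The Lamb1 start peak had 87.3 and 84.2 in old and 83.3 and 73.9 in young MSCs (0.13 ± 0.18), and that of Lamb2 had 81.8 and 105 against 81.9 and 88.2. The gamma chains had 30 peaks, of which 11 were higher (36.7%) and 2 lower (6.67%), with a median of 0.24. Lamc1, the gamma chain of most laminins, had 4 of 12 higher and none lower, while its start peak was nearly level, with 153 and 149 in old and 143 and 158 in young MSCs (0.01 ± 0.15). The median of Lamc1 was 0.45 in old replicate 2 alone and 0.03 in old replicate 1 alone. Lamb3 and Lamc3 had weak start peaks, between 5.64 and 15.5 in every sample, whose groups overlapped.

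**Figure D3:**
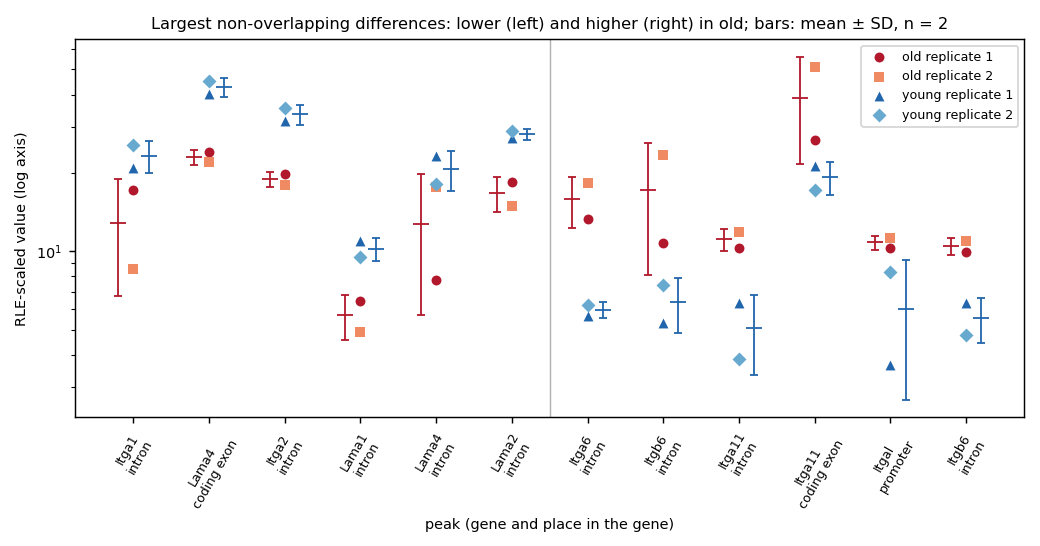
RLE-scaled values (y axis, log scale) of the 4 samples at the 6 peaks with the largest non-overlapping difference in each direction (x axis, gene and place in the gene), with mean ± SD per age group (n = 2). At Lama4 (24.1 and 22.0 against 40.1 and 45.1) and Itga6 (13.3 and 18.3 against 5.64 and 6.23) the groups are well apart, while at the Itga1 intron peak (17.2 and 8.54) and the first Itgb6 intron peak (10.8 and 23.5) the 2 old samples differ widely.

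**Figure D4:**
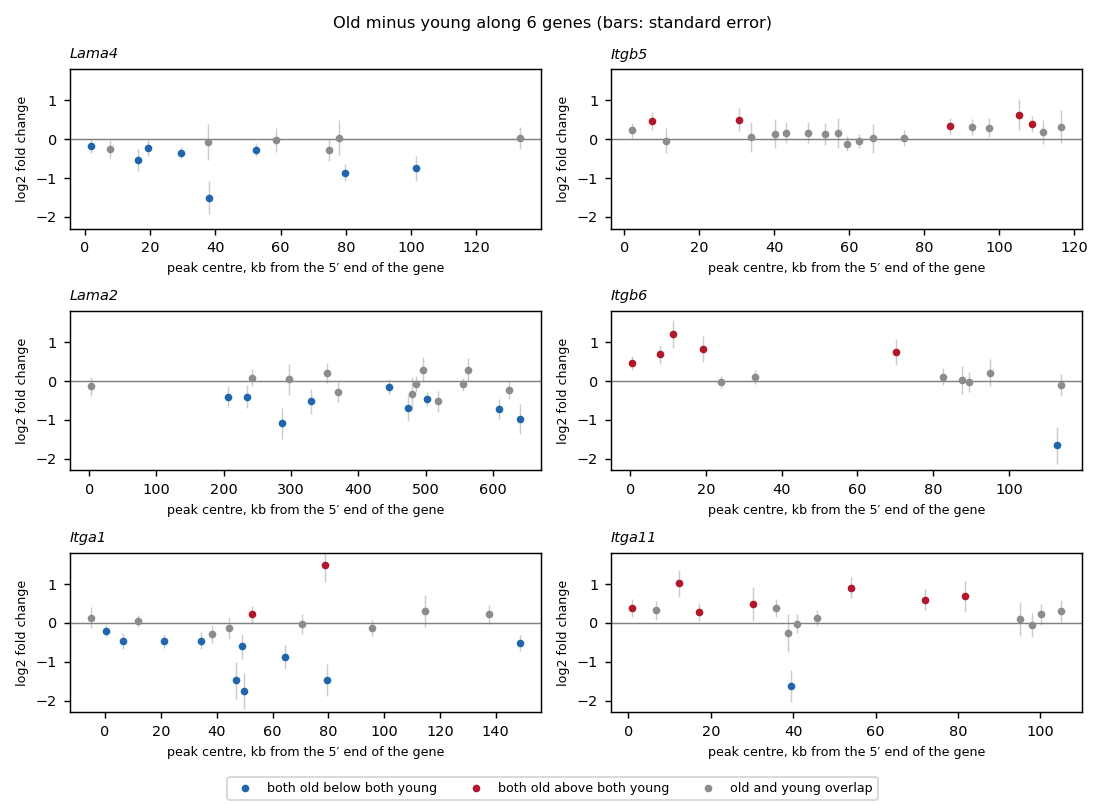
Log2 fold change with its standard error (y axis) of each peak against the distance of its centre from the 5′ end of the gene in kb (x axis), for 6 genes. The lower peaks of Lama4 and Lama2 are spread along the gene, 4 of the 5 higher peaks of Itgb6 lie in its first 20 kb, and those of Itgb5 and Itga11 are spread among overlapping ones.

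Motif letters in the central 300 bases were about as common in the set as elsewhere. AP-1 matches were found in 19.9% of the 332 peaks and 21.4% of all autosomal peaks, RUNX matches in 25.6% and 26.1%, TEAD matches in 24.7% and 20.8%, GC boxes in 9.34% and 9.67%, and ETS matches in 2.71% and 2.19%. At promoters RUNX letters were present in 28.6% of the 49 peaks of the set and 15.8% of all, and GC boxes in 28.6% and 36.6%. Among peaks with separate groups, 22.5% of the 80 lower and 21.1% of the 76 higher peaks held an AP-1 match. TEAD matches were in 26.2% and 31.6% of them. These shares are descriptions and were not tested.

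Other genes of the pathway were counted by the same windows, and their counts stand beside the shares of all peaks given above (24.2% lower and 23.2% higher with separate groups, 1.12% past 0.05). Of the adaptors and kinases behind integrins, 22 of 24 genes had peaks. None of their 221 peaks passed at 0.01 or 0.05, 71 were higher in both old samples (32.1%) and 30 lower (13.6%), and the median was 0.12. Chosen after their values were seen, Tns1, which links integrins to actin, had 12 of 28 peaks higher and none lower, and Ptk2b, a relative of focal adhesion kinase, had 9 of 12 higher and 1 lower. The basement membrane partners of laminin and other laminin receptors had 87 peaks with 19 lower and 19 higher. One of them passed at 0.05, an intron peak of Ntn4 (netrin 4, which binds laminin) with 35.3 and 28.4 in old and 6.97 and 13.9 in young MSCs (1.58 ± 0.30, adjusted p = 0.0219). Integrin ligands had 75 peaks, 21 lower and 13 higher. At 0.05 the start peak of Thbs1 (thrombospondin 1) passed, with 2093 and 2202 in old and 2792 and 3362 in young MSCs (-0.51 ± 0.09, adjusted p = 0.0146), and so did an intron peak of Fbn1 (fibrillin 1) with 240 and 191 against 323 and 329 (-0.60 ± 0.14, adjusted p = 0.0472). None of the 3 lists had a peak past 0.01.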

How the data were processed

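ATAC-seq was measured in 2 old and 2 young samples of bone MSCs at 2% O2. According to the study's methods, reads were mapped to mm10 with Bowtie2, duplicates were removed with Picard and peaks came from chromstaR. These steps are described for cells cultured under different oxygen levels, not separately for these samples. Per the labels the build is mm10. The deposited values, named RPKM by the authors, entered as a score for every peak in every sample. In each sample 100% of them were whole multiples of a single step (tolerance 0.001), so they are counts scaled to the library total and not divided by peak length. All samples share the same list of fixed regions, so a wide peak can average over several sites, and weak peaks rest on few counts (8 of the 332 had 3 counts or fewer in a sample).

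log2(value + 1) after division by RLE factors was fitted with limma 3.58.1 in R 4.3.3 (lmFit, eBayes with trend and robust moderation), with Benjamini-Hochberg adjustment over all 117282 peaks. Fold changes are on this scale, which understates differences of weak peaks. The step was also run on simulated counts, drawn with a single spread parameter for all peaks and without a chromosome-wide shift. Its outcome is not used here. Summaries used Python 3.11.15, numpy 2.4.6 and pandas 2.3.3, and figures matplotlib 3.10.9. Sequences and motifs came from GRCm38, and windows overlapping an annotated UTR were not printed. Some items are not reported here, and their peaks stay in the counts of the set.

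Named peaks were the strongest start peak of each gene, every peak past the threshold, the 6 with the largest fold change in each direction among those with separate groups and a mean at or above the lower quartile (7.94), and the 3 densest. Genes, lists and rules were chosen with earlier results of these data known. Alternatives were values as deposited or at equal total signal, a pseudocount of 0.1 or 5, leaving out weak peaks, plain moderation, a replicate block, an adjusted p under 0.05, limma-voom, other windows and symbols, and leaving out each sample. The median without chromosome 11 was added after seeing the data. Deviations of same-numbered samples from their group means correlated at -0.099 over all peaks, so the numbers were not taken as pairs.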

Additional observations from a re-analysis of the deposited data

How the results depend on the processing

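On the values as deposited, the median over all peaks moved to -0.27 (log2). With it, the median of the set became -0.24 and that of its promoters -0.16, the share of peaks with a negative fold change 73.5%, and both old samples lay below both young ones at 138 peaks and above at 20. One peak of the set then passed, the Itga11 intron peak, where 1.18% of all peaks did. Relative to the median of all peaks, each role kept its side under this scaling and under equal total signal. Of the 47 named peaks, the start peaks of Itgav (-0.011) and Lamc1 (-0.0083) changed sign relative to that median.

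With a replicate block, 1 peak of the set was lower (the same Itga11 peak) and 0 were higher, while 907 and 362 of all peaks passed. The block changed no call among the 47 named peaks. Leaving out 1 sample in turn gave between 0 and 20 peaks past the threshold lower in old MSCs and between 0 and 18 higher. Both upper ends came without old replicate 1, where 8.83% of all peaks passed, and without old replicate 2 there were 2 lower and 0 higher, where 1.43% of all peaks passed. A lone old sample is assumed there to vary like the young ones. The median of the set then ranged from -0.001 to 0.03.

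At 14 of the named peaks the sign changed in at least 1 of these fits. Relative to the median of all peaks, the fold change ranged from -0.044 to 0.56 at the start of Itga10, -0.30 to 0.23 at Itga2b, -0.041 to 0.30 at Itga4, -0.22 to 0.17 at Itga6, -0.21 to 0.031 at Itga7, -0.057 to 0.27 at Itga9, -0.045 to 0.056 at Itgav, -0.27 to 0.22 at Itgb1, -0.097 to 0.55 at Itgb5, -0.46 to 0.039 at Itgb8, -0.050 to 0.30 at Lamb2, -0.23 to 0.83 at Lamb3 and -0.063 to 0.089 at Lamc1, and from -0.17 to 0.0089 at the densest Lama2 peak. The cause was not tested. At equal total signal the median of the set was 0.05 and that of its promoters 0.13, and over peaks that overlap no other protein-coding gene the median of the set was 0.04. With all 4 samples kept, these and the remaining alternatives run gave 0 peaks of the set past 0.01. The share of all peaks past it moved from 0.0563% in the main fit to 0.0% with plain moderation and 0.123% with limma-voom. At an unadjusted p under 0.05 stood 55 peaks of the set in the main limma fit, 47 with plain moderation and 58 with limma-voom. Without chromosome 11 the median of the set was 0.04. The planned edgeR test was not run. With 2 samples per group, differences of about 4 standard errors missed the threshold, as at Itga6 (1.26 ± 0.31) and Itga11 (-1.63 ± 0.41).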
